A study of Rattus norvegicus with 14 samples.

Results

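The mucin-type O-glycosylation enzymes described here were Galnt1, Galnt3, Galnt4, Galnt7, C1galt1, C1galt1c1, Gcnt1, Gcnt3, B3gnt6 and Fut2. They were chosen by name as enzymes that start, extend, branch and cap the sugar chains of mucins, with earlier results of these data known. All 10 genes were on the array by gene name, out of 26276 gene names in all, and they were represented by 12 of the 30367 non-control probes. Galnt1 and Gcnt1 had 2 probes each.

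Mucins are the glycoproteins of the mucus that covers the colonic epithelium, and most of their mass is sugar. In the Golgi apparatus a polypeptide GalNAc-transferase (Galnt family) attaches a first N-acetylgalactosamine to a serine or threonine of the mucin backbone. C1galt1 then adds galactose to form core 1, for which it needs its chaperone C1galt1c1, Gcnt1 and Gcnt3 branch core 1 into core 2, B3gnt6 builds core 3 in its place, and fucosyl-, sialyl- and sulfotransferases cap the finished chain. Core 3 chains are known as a typical feature of colonic mucins, and Fut2 adds the fucose that forms the H antigen on secreted mucins.

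Colonocytes, the epithelial cells of the colon, came from male Wistar rats that were 5 to 6 weeks old when they were bought. After a standard diet the rats received for 15 days a normal-protein diet (NPD), with 14% of energy from protein, or an isocaloric high-protein diet (HPD), with 55%, the protein in both being whole milk protein. The cells were released with EDTA from the flushed colon without its last segment. The RNA is therefore that of the detached cells together and not of goblet cells alone, which make most of the mucus. RNA of 7 NPD and 7 HPD rats, 1 array per rat, was hybridised to one-colour Agilent arrays. In such a bulk sample, fewer cells of a type and less RNA per cell cannot be told apart.

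A probe is a 60-base DNA oligonucleotide on the array that binds the labelled RNA of a gene. Sequences are shown for a pair of probes of the branching enzymes, because they lie on related stretches of different genes, followed by those of the core 3 enzyme, the chaperone of core 1 and the initiating enzymes whose probes join separate stretches of the genome. Each is written as the array design gives it. In the Gcnt1 and Gcnt3 probes capitals mark the 39 identical bases of the 57 that align without a gap, while the other probes carry no capitals.
Gcnt1 (A_64_P038462): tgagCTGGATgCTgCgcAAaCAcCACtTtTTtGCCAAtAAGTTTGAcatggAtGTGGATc
Gcnt3 (A_44_P274173): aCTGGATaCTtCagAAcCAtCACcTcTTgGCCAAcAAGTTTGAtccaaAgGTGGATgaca
B3gnt6 (A_64_P147106): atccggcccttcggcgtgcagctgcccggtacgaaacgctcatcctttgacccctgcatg
C1galt1c1 (A_44_P1026917): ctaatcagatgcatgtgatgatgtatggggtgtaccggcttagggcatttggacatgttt
Galnt1 (A_44_P524981): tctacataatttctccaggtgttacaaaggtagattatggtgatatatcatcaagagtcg
Galnt7 (A_44_P406169): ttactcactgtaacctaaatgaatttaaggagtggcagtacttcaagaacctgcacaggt

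The scanner files place these probes on the rat genome but do not name its build. The first Gcnt1 probe was at chr1:220827962-220828021 (minus strand) and the Gcnt3 probe at chr8:74471104-74471163 (minus strand). The B3gnt6 probe was at chr1:155435989-155436048 (minus strand) and the C1galt1c1 probe at chrX:6748757-6748816 (plus strand). The Galnt1 probe spanned 965 genomic bases at chr18:16039236-16040200 and the Galnt7 probe 4850 at chr16:36114774-36119623, both longer than the 60 bases of the probe, so that each joins sequence on both sides of a gap as a spliced transcript does. The other Gcnt1 probe (A_44_P497553) started at base 4390 of the same transcript, against base 1963 for the first.

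The values below are log2 background-subtracted signals with the array median set to 0, and a difference is the HPD mean minus the NPD mean on that log2 scale. limma was fitted over all probes and a probe was called at a Benjamini-Hochberg q-value below 0.1. Signals of different probes cannot be ranked against each other, because probes differ in how they bind. Of the 12 probes, 11 were well above background on all 14 arrays, 0 were saturated on any array, and the net signals of the 12 ranged from 15.2 to 10150. The first Gcnt1 probe was well above background on 7 NPD and 5 HPD arrays.

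The difference between the diets had a median of 0.11 across the 30367 probes, which cyclic loess brought to 0.00067, so differences of this size do not separate a gene from the rest of the array. Over the 17952 probes well above background throughout 1 or both diets the median was 0.05. By the scanner's naming of the scans the arrays fell into 2 groups, read here as 2 slides. There were 4 NPD and 3 HPD arrays on slide 1 and 3 NPD and 4 HPD arrays on slide 2. Each enzyme was also compared with slide as a block. Slide was called for 40.1% of all probes in that fit. Of the marker lists, goblet, absorptive and enteroendocrine markers were well above background for 11 of 11, 13 of 13 and 5 of 5 genes on the array, and the summed linear level of the goblet list was 7878 to 10676 times the array median in NPD and 6432 to 14355 in HPD (exact permutation test, p = 0.68). That sum is weighted to the brightest genes and does not show that each marker was alike. By the brightest probe of each gene, 5 goblet markers were higher and 6 lower in HPD. Their differences ranged from -0.63 for Agr2 to 1.82 for Spink4 (limma, adjusted p = 0.417 for each). For immune markers 5 of 11 genes were well above background, with a summed level of 17.9 to 56.4 in NPD and 17.3 to 24.1 in HPD and Cd4 at background on every array. For stromal and muscle markers 7 of 9 were, with 13.9 to 28.9 in NPD and 12.0 to 23.0 in HPD and Col3a1 and Dcn at background. Of the red blood cell list 3 of 6 genes were on the array and 2 well above background, with a summed level of 36.1 to 61.0 in NPD and 45.7 to 151 in HPD (exact permutation test, p = 0.0111), and its part in the differences described here was not tested.

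None of the 10 enzyme genes was called between the diets, against 0.056% of all probes (17 of 30367), and the lowest adjusted p of the 12 probes was 0.489 (limma). By the brightest probe of each gene, 5 genes had a higher and 5 a lower mean in HPD, and the median difference was 0.02. Without adjustment 0 of the 12 probes had a limma p under 0.05, against 11.4% of all probes. With slide as a block the count called was again 0, against 0.0889% of all probes, and 0 had an unadjusted p under 0.05, against 14.6%. For 0 of the 12 probes did the 7 HPD values separate from the 7 NPD values, which happened in 0.273% of all probes. The differences ranged from -0.49 for the second Gcnt1 probe to 0.27 for Galnt3, and their median size by the brightest probes was 0.20, against 0.17 over the 17952 probes that stood well above background throughout 1 or both diets.

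**Figure D1:**
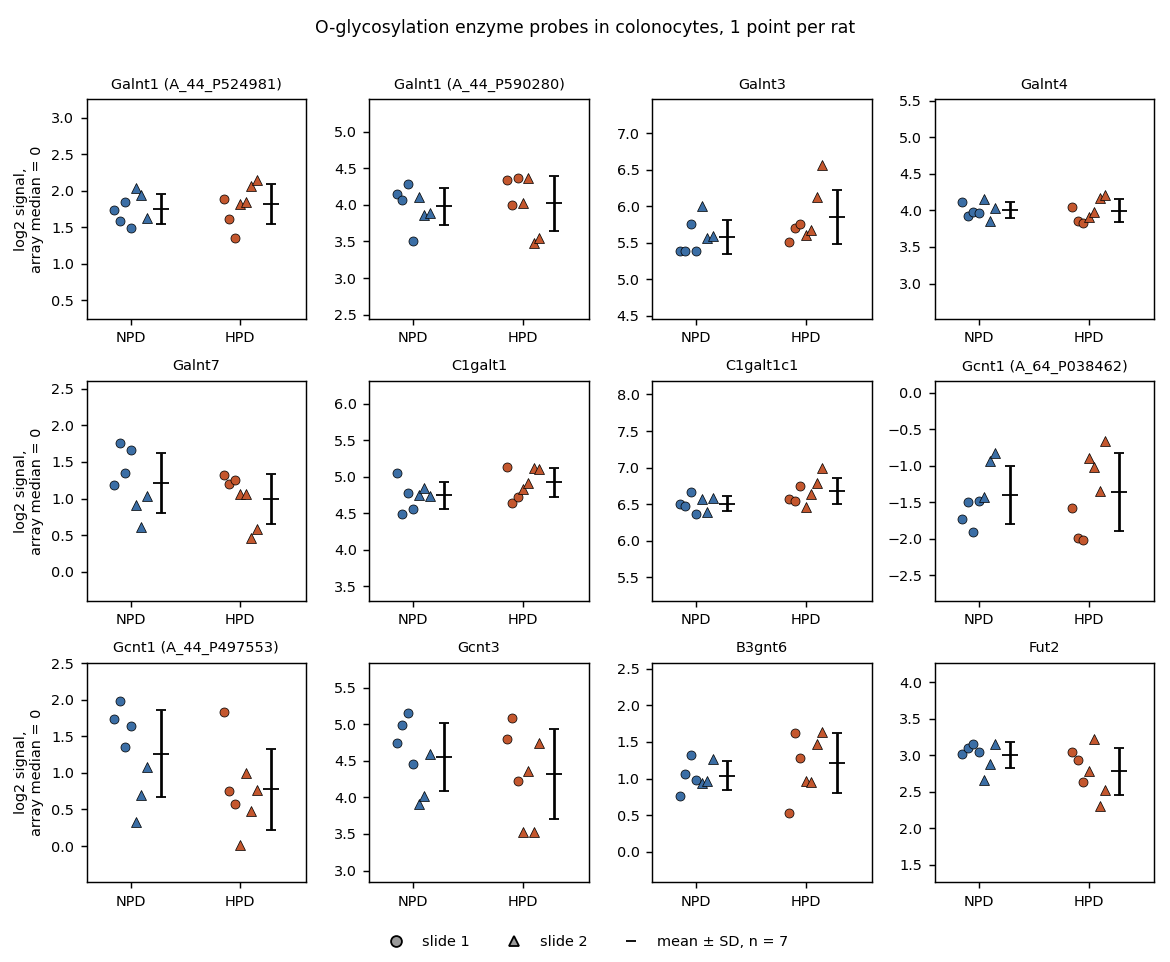
Log2 signal of each of the 12 enzyme probes with the array median at 0 (vertical axis, the same span of 3 units in each panel), by diet, with 1 point per rat, circles for slide 1 and triangles for slide 2, and bars for the mean ± SD (n = 7). The diets overlap in every panel, and for Galnt7 and the first Gcnt1 probe (A_64_P038462) the circles and triangles lie apart.

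The initiating enzymes Galnt1, Galnt3, Galnt4 and Galnt7 attach the first sugar, and they differ in which sites of the backbone they use. Galnt3 had the largest positive difference of all the probes. Its values ran from 5.38 to 5.998 in NPD (median 5.56) and from 5.51 to 6.57 in HPD (median 5.71). The 2 highest HPD values stood above every NPD value, and the other 5 lay within the NPD range. The difference was 0.27 ± 0.17 (SE, n = 7 per diet), with a 95% interval from -0.09 to 0.63 (limma, adjusted p = 0.505). The exact two-sided permutation test gave p = 0.131 over all splits of the arrays and 0.148 within slides. The difference was positive on each slide, 0.18 on slide 1 and 0.28 on slide 2.

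Galnt7, a transferase that prefers backbones already carrying a GalNAc, had the opposite sign. Its values ran from 0.61 to 1.75 in NPD (median 1.18) and from 0.46 to 1.32 in HPD (median 1.07). In HPD 2 values lay below all NPD values, 0 above, and 5 of 7 below the NPD mean. The difference was -0.22 ± 0.20 (SE; 95% interval -0.64 to 0.19, limma adjusted p = 0.582, exact permutation p = 0.294). With slide as a block it was -0.14, and the Galnt7 probe was 0.55 lower on slide 2 than on slide 1 (limma, adjusted p = 0.00764).

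Galnt4, which like Galnt7 acts on partly glycosylated backbones, was the flattest of the enzymes. Its probe was printed 10 times on each array, and the median SD between these spots was 0.0433. Values ran from 3.86 to 4.15 in NPD (median 3.98) and from 3.83 to 4.21 in HPD (median 3.98). The diets coincided, with a difference of -0.01 ± 0.10 (SE) whose 95% interval, -0.22 to 0.21, holds no change beyond 1.16-fold in either direction (limma, adjusted p = 0.977).

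Galnt1, an initiating enzyme of broad substrate range expressed in most tissues, was measured by 2 probes. The probe that joins exons had values from 1.49 to 2.04 in NPD (median 1.74) and from 1.35 to 2.15 in HPD (median 1.84), a difference of 0.07 ± 0.14 (SE; limma adjusted p = 0.811). The other probe (A_44_P590280, chr18:16052635-16052694) had values from 3.51 to 4.28 in NPD (median 4.06) and from 3.49 to 4.37 in HPD (median 4.03), a difference of 0.04 ± 0.17 (SE; limma adjusted p = 0.914). Both differences were below the median over all probes, but that of the exon-joining probe was above the 0.05 of probes well above background. Both differences turned negative under some scalings. The 2 probes did not follow each other from rat to rat: once the mean of each diet on each slide was taken off, Pearson's r between them over the 14 arrays was -0.02 and Spearman's rho -0.01. On slide 2 the exon-joining probe was 0.28 higher (limma, adjusted p = 0.0769) and the other 0.22 lower (adjusted p = 0.331).

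Core 1 is made by C1galt1 and its chaperone C1galt1c1, without which the C1galt1 protein is not folded into an active enzyme. The pair had nearly equal positive differences. C1galt1 ran from 4.48 to 5.06 in NPD (median 4.76) and from 4.64 to 5.13 in HPD (median 4.92). The ranges overlap over most of their length, and 3 HPD values lay above the highest NPD value. The difference was 0.18 ± 0.12 (SE; 95% interval -0.08 to 0.44, limma adjusted p = 0.515, exact permutation p = 0.115).

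C1galt1c1 had the tightest values in NPD after Galnt4, from 6.37 to 6.66 (median 6.51), and ran from 6.47 to 6.99 in HPD (median 6.64). Again 3 HPD values lay above all NPD values and 6 of 7 above the NPD mean. The difference was 0.17 ± 0.11 (SE; 95% interval -0.05 to 0.39, limma adjusted p = 0.504), which is 0.07 above the median over all probes. In the exact two-sided permutation test it was the one enzyme probe of 12 below 0.05 (p = 0.0478, unadjusted for the number of probes), and regrouping within slides gave p = 0.0751. The difference was 0.12 on slide 1 and 0.21 on slide 2, it was 0.10 after cyclic loess, and it was 0.02 in the authors' normalized table.

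Core 2 branching is the task of Gcnt1, the leukocyte-type enzyme, and of Gcnt3, the mucin-type enzyme, which is known from the mucus-secreting tissues. Gcnt3 ran from 3.92 to 5.16 in NPD (median 4.60) and from 3.52 to 5.09 in HPD (median 4.36). The rats differed widely within each diet and 2 HPD values lay below all NPD values. The difference was -0.23 ± 0.27 (SE; 95% interval -0.81 to 0.35, limma adjusted p = 0.675, exact permutation p = 0.435). It was -0.14 on each slide, and the probe was 0.66 lower on slide 2 (limma, adjusted p = 0.034).

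The Gcnt1 probes gave different pictures. The second probe ran from 0.33 to 1.99 in NPD (median 1.35) and from 0.02 to 1.83 in HPD (median 0.76). In HPD 6 of 7 values lay below the NPD mean and the remaining one, replicate 1, was close to the highest NPD values. The difference was -0.49 ± 0.29 (SE; 95% interval -1.10 to 0.12), the largest in size among the enzymes, with limma's adjusted p at 0.489 and an exact permutation p of 0.138 over all splits and 0.136 within slides. It was -0.63 on slide 1 and -0.14 on slide 2. Leaving out HPD replicate 1 gave -0.66 (limma, adjusted p = 0.196), which still was not called. At the other extreme, leaving out HPD replicate 4 gave -0.36.

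The first Gcnt1 probe, on the stretch related to Gcnt3, was the one not always well above background. Its values ran from -1.91 to -0.82 in NPD (median -1.49) and from -2.02 to -0.67 in HPD (median -1.35), with the diets overlapping throughout. The difference was 0.04 ± 0.24 (SE; 95% interval -0.47 to 0.55, limma adjusted p = 0.938), and with slide as a block it was -0.06. Slide moved the Gcnt1 probes in opposite directions, the first 0.74 higher on slide 2 (limma, adjusted p = 0.00255) and the second 0.73 lower (adjusted p = 0.0238). Within slides and diets they did go together, with Pearson's r at 0.61 and Spearman's rho at 0.65 over the 14 arrays.

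B3gnt6, the core 3 synthase, ran from 0.76 to 1.33 in NPD (median 0.98) and from 0.53 to 1.63 in HPD (median 1.28). The HPD values spread to both sides of the NPD range, with 3 above it and 1 below. The difference was 0.17 ± 0.17 (SE; 95% interval -0.20 to 0.54, limma adjusted p = 0.634, exact permutation p = 0.349). Leaving out HPD replicate 1, the lowest HPD value, gave 0.28 (limma, adjusted p = 0.300). At the other extreme, leaving out HPD replicate 7 gave 0.10.

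Fut2, the capping fucosyltransferase, was printed 10 times on each array, with a median SD between spots of 0.0643. Its values ran from 2.66 to 3.16 in NPD (median 3.05) and from 2.30 to 3.23 in HPD (median 2.79). In HPD 3 values lay below all NPD values and 1 above. The difference was -0.22 ± 0.15 (SE; 95% interval -0.54 to 0.09, limma adjusted p = 0.515, exact permutation p = 0.131 over all splits and 0.169 within slides). It was -0.21 on slide 1 and -0.19 on slide 2. In the authors' normalized table it was -0.34 (limma, adjusted p = 0.223) and with slide as a block -0.29 (adjusted p = 0.199).

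**Figure D2:**
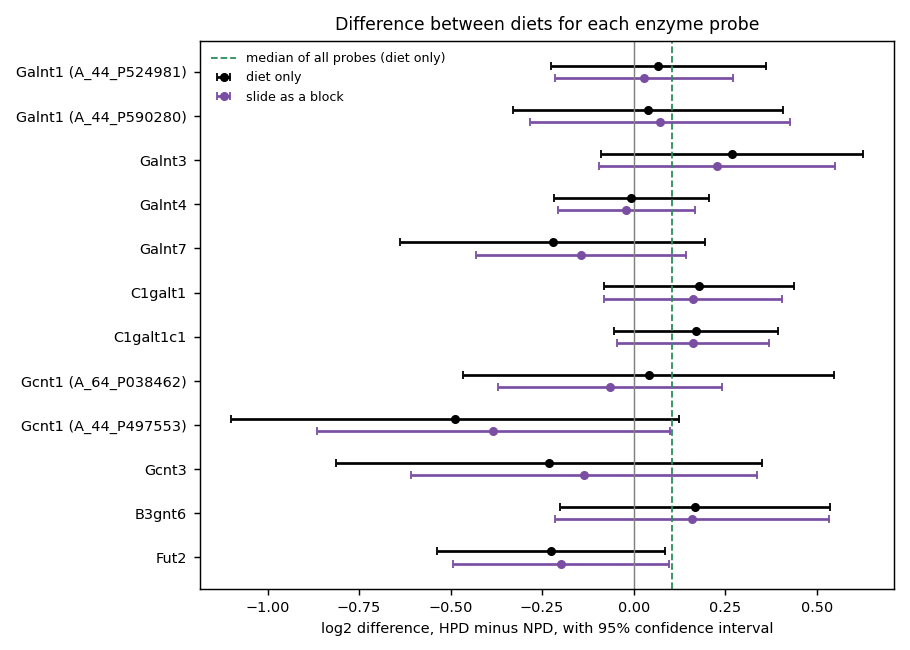
Log2 difference between the diets, HPD minus NPD, for each enzyme probe with its 95% confidence interval (horizontal axis), from the fit of diet only (black) and with slide as a block (purple), beside the median over all probes (green dashes, 0.11). Every interval holds 0 in both fits, and the widest is that of the second Gcnt1 probe, from -1.10 to 0.12.

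The intervals give the size of change that 7 rats per diet leave possible. For Galnt4 they end at 1.16-fold lower and 1.15-fold higher, for C1galt1c1 at 1.04-fold lower and 1.31-fold higher, and for Galnt3 at 1.06-fold lower and 1.54-fold higher. On the negative side they end at 1.45-fold lower for Fut2, 1.56-fold for Galnt7, 1.76-fold for Gcnt3 and 2.14-fold for the second Gcnt1 probe. The enzymes therefore differ in how closely their level was measured, and an adjusted p above the threshold does not show that the diets were equal.

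For Galnt3, C1galt1, C1galt1c1 and B3gnt6 the sign of the difference was positive in all 33 settings computed. For Galnt7, Gcnt3, Fut2 and the second Gcnt1 probe it was negative in all 33. None of these was called in any setting. The authors' table and the mean of all probes of a gene give values by gene name, counted under the brightest probe. For Gcnt1 those values are therefore not of the second probe alone. The settings included normexp background correction, in which 16.9% of all probes were called, and the authors' normalized table with slide as a block, in which 10.5% were. The lowest adjusted p that any enzyme reached was 0.127, for Fut2 after normexp with slide as a block (difference -0.28). Galnt4 and both probes of Galnt1 were near 0 and changed sign with the scaling, as did the first Gcnt1 probe. All of these settings use the same rats and bring the arrays to a common level, so an unchanged sign is not independent support. Before centring, the array median ran from 6.04 to 6.65 in NPD and from 5.74 to 6.23 in HPD on the log2 scale.

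Slide was called for 5 of the 12 enzyme probes (41.7%, against 40.1% of all probes), namely Galnt7, Gcnt3, both Gcnt1 probes and the exon-joining probe of Galnt1. Galnt7 ran from 1.18 to 1.75 on slide 1 and from 0.46 to 1.07 on slide 2, without overlap. The first Gcnt1 probe ran from -2.02 to -1.49 on slide 1 and from -1.42 to -0.67 on slide 2, also without overlap. The Gcnt3 and second Gcnt1 probes overlapped between slides. What the slides differed in besides their scan is not given in the sources used here.

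The spread between rats was larger in HPD for 10 of the 12 enzyme probes, against 66.9% of the probes well above background. The median ratio of the HPD to the NPD standard deviation was 1.41 for the enzymes and 1.14 for those probes. Galnt7 and the second Gcnt1 probe were the exceptions, with 0.41 and 0.60 in NPD and 0.34 and 0.56 in HPD. B3gnt6 had 0.20 in NPD and 0.41 in HPD, and C1galt1c1 0.11 and 0.18.

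Some pairs of enzymes varied together, or in opposite directions, across the arrays. After the mean of each diet on each slide was taken off, Galnt3 and C1galt1c1 followed each other most closely of the 45 pairs, with Pearson's r at 0.86 and Spearman's rho at 0.80 over the 14 arrays. The next pairs were Galnt4 with C1galt1 (r = 0.67), Galnt3 with B3gnt6 (0.63) and Galnt7 with Fut2 (0.60). In the other direction Galnt7 opposed C1galt1 (r = -0.65) and Galnt3 opposed Fut2 (-0.60) and Galnt7 (-0.54). These are descriptions of 14 arrays that share their normalization, 27 of the 45 pairs were above 0, and the median r was 0.08.

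**Figure D3:**
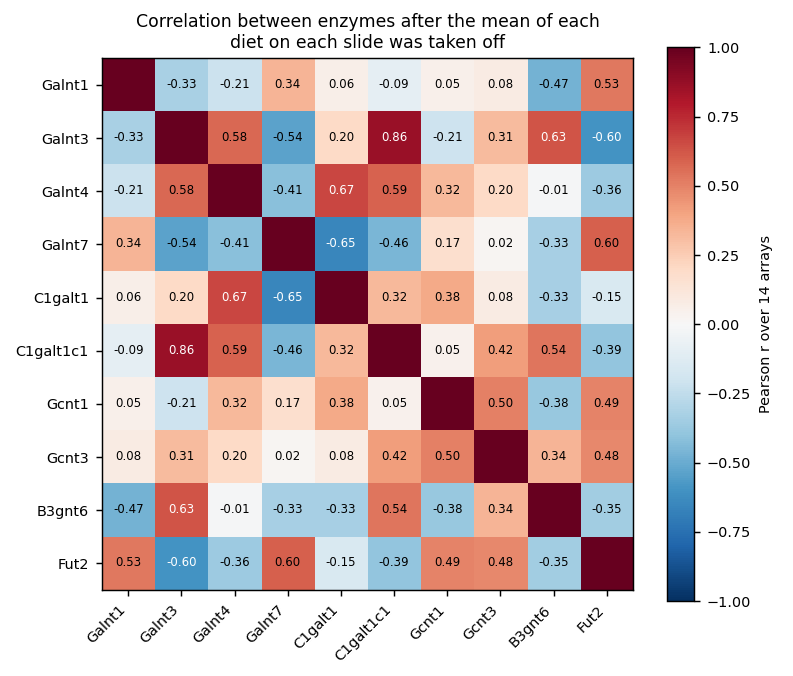
Pearson's r over the 14 arrays between the enzymes (brightest probe of each gene, rows and columns), with the mean of each diet on each slide taken off first; red is positive and blue negative. The pair of Galnt3 and C1galt1c1 has the highest value, 0.86, and that of Galnt7 and C1galt1 the lowest, -0.65.

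Among all named genes measured well above background in each of the 14 rats, the closest to Galnt3 was Etfb (r = 0.97), a subunit of the mitochondrial electron transfer flavoprotein, and the closest to C1galt1c1 was Ccdc56 (0.96). The closest to B3gnt6 was Noa1 (0.97), to C1galt1 Usp12 (0.93), and to Galnt4 Krt19 (0.94), a keratin of simple epithelia. The closest to Gcnt1 was the calmodulin gene Calm2 (0.96) and to Gcnt3 Tmem100 (0.94). The closest to Galnt7 was Slc16a6 (0.95), to Fut2 Tnfaip1 (0.93) and to Galnt1 Tfb1m (0.94). Each is the highest of at least 11772 correlations on 14 arrays and a description of them, and none of these genes was itself called between the diets (limma).

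Other genes of the pathway and of its enzyme families were taken from role lists of 80 genes, of which 72 were on the array, 3 of them through their RefSeq accession. The lists were drawn up by role and family, so a listed gene need not act on mucin chains. Of these 72, 0 were called in the fit of diet or with slide as a block, 35 had a higher and 37 a lower mean in HPD, and the median difference was -0.01. Without adjustment 5 higher and 6 lower genes had a limma p under 0.05, where 11.4% of all probes did. The values that follow are from the brightest probe of each gene.

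Of the other initiating transferases 8 were higher and 5 lower, or 4 and 4 among the 8 well above background. An unadjusted limma p under 0.05 was found for 0 of them, beside 11.4% of all probes. Galnt14 had the largest difference, 0.45 ± 0.41 (SE), with Galnt5 at -0.43 ± 0.20 (limma, adjusted p of 0.592 and 0.441). Galnt14 varied by 0.93 (SD, n = 7) between the NPD rats, and its exact permutation p was 0.313 over all splits and 0.416 within slides. For Galnt5, 6 of 7 HPD values lay below the NPD mean, and the exact permutation p was 0.0693 over all splits and 0.0302 within slides, unadjusted.

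Of the 17 genes listed as other core and chain-extending enzymes, 8 were higher and 9 lower. An unadjusted p under 0.05 was found for 4 higher and 1 lower (limma), again beside 11.4% of all probes. Gcnt2, which branches poly-N-acetyllactosamine chains into the I antigen, was at 6.17 ± 0.23 (SD, n = 7) in NPD and 6.61 ± 0.33 in HPD, a difference of 0.44 ± 0.16 (SE; limma adjusted p = 0.417, exact permutation p = 0.0169). B3gnt4, an N-acetylglucosaminyltransferase that elongates such chains, differed by 0.47 ± 0.20 (SE; adjusted p = 0.425) and the galactosyltransferase B4galt5 by 0.38 ± 0.16 (adjusted p = 0.418). B4galt2 was well above background on 1 NPD and 4 HPD arrays only, and B3galt4 was the lower one, at -0.37 ± 0.13 (adjusted p = 0.417). B4galt2, B4galt5 and B3galt4 were named after their values were seen.

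Among the genes listed as capping enzymes none was called (limma), and 1 higher and 3 lower of the 21 on the array had an unadjusted p under 0.05, beside 11.4% of all probes. The sialyltransferases St6galnac2, St3gal2 and St6gal1 differed by -0.61 ± 0.35, -0.57 ± 0.25 and -0.46 ± 0.17 (SE; limma adjusted p of 0.485, 0.425 and 0.417), among 4 higher and 5 lower genes. Of the sulfotransferases, Chst5 was at 3.61 ± 0.39 (SD, n = 7) in NPD and 2.80 ± 1.08 in HPD, and Gal3st2, in which HPD replicate 7 lay far below the other HPD rats, at 2.01 ± 0.30 and 1.36 ± 0.70 (limma adjusted p of 0.445 and 0.418), while Gal3st1 differed by 0.28 ± 0.13 (adjusted p = 0.438). The median difference of the 7 sulfotransferases was 0.23, and -0.54 over the 5 that were well above background. Among the fucosyl- and other terminal transferases, Fut4 was lower in 7 of 7 HPD rats than the NPD mean, 6.12 ± 0.11 (SD, n = 7) against 6.31 ± 0.11 (limma adjusted p = 0.444). Its exact permutation p was 0.00408 over all splits and 0.0114 within slides, unadjusted. The dimmer Fut4 probe (A_64_P023401), also well above background, had the opposite sign, 0.08 ± 0.14 (SE; limma adjusted p = 0.768). Abo differed by -0.29 ± 0.22 (SE). St6gal1 and Gal3st1 were named after their values were seen.

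The 21 genes of sugar donor synthesis and transport were all well above background, with 9 higher, 12 lower and a median of -0.06. Galk1, which phosphorylates galactose, differed by 0.42 ± 0.29 (SE). Fpgt, of the salvage route to GDP-fucose, differed by -0.37 ± 0.14 (SE) and Tsta3, the last enzyme of the de novo route to it and named after its values were seen, by -0.37 ± 0.14 (limma, adjusted p of 0.417 for each).

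**Figure D4:**
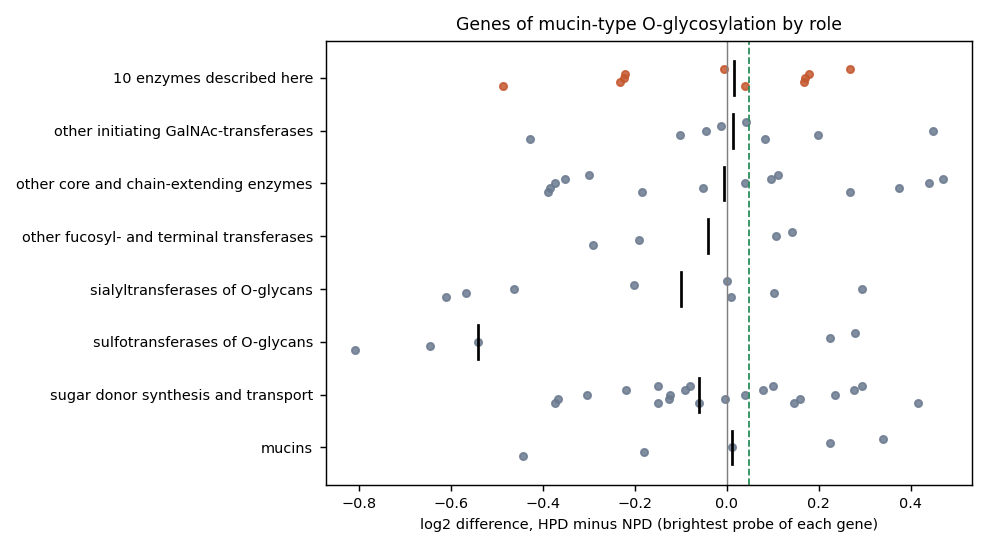
Log2 difference between the diets, HPD minus NPD (horizontal axis), of each listed gene by its brightest probe, for genes well above background throughout 1 or both diets, grouped by role; black bars are list medians and green dashes the median over all such probes (0.05). The 10 enzymes (orange) spread from -0.49 to 0.27 around a median of 0.02, and the sulfotransferases have the lowest median, -0.54, over 5 genes.

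The mucins carry the chains that these enzymes build, and 10 of 16 listed genes were on the array, 5 of them well above background. None was called (limma). By the brightest probe 6 had a higher and 4 a lower mean in HPD, or 3 and 2 among the 5 well above background. An unadjusted limma p under 0.05 was found for 1, Muc6, beside 11.4% of all probes. Muc6, a gel-forming mucin, was at 1.78 ± 0.10 (SD, n = 7) in NPD and 2.12 ± 0.16 in HPD, and the diets did not overlap (exact permutation p = 0.000583, the smallest that this test can give), with limma's adjusted p at 0.417. Muc1, a membrane mucin, differed by -0.44 ± 0.28 (SE; adjusted p = 0.515). Muc2, the main gel-forming mucin of the colon, was outside the rule for naming, and its 3 probes differed by 0.76 ± 0.28, 0.50 ± 0.15 and 0.01 ± 0.22 (SE; limma adjusted p of 0.417, 0.417 and 0.980). The diets did not overlap for 0.273% of all probes and for 0 of the 12 enzyme probes. A count so near that share does not set the enzymes apart from the mucins.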

How the data were processed

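Per the labels, the authors scanned each array with Agilent Feature Extraction 10.7.3.1, and the deposited scanner files give spot intensity on a linear scale, raw and background-subtracted. The authors further deposited normalized log2 values, 1 row per gene name. Which signal column and which centring statistic they used is not given in the sources used here. Samples that they removed as outliers were not analysed here.

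Members, gene lists and tests were chosen with earlier results of these data known. Control spots and spots that the scanner software had marked as outliers were dropped. The background-subtracted signal was put on the log2 scale, averaged over the spots of a probe, and centred on the median of each array over its probes. limma 3.58.1 (R 4.3.3; lmFit and eBayes with diet as the only term) compared the diets, with Benjamini-Hochberg adjustment over 30367 probes and a q-value below 0.1 as the threshold, and files were read with data.table (version 1.17.8). No filter on signal was applied. Each enzyme probe was also tested by exact two-sided permutation, over the 1716 distinct splits of the arrays and over 1225 regroupings within slides. Slide was read from the scanner's naming of each scan, which the labels do not call a slide and which may stand for the scan run. Probes were matched by the gene name of the array design, and listed genes not found so through RefSeq accessions (GRCr8).

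Named were each of the 10 enzymes by every probe, and from each other role list the 2 genes with the largest difference by the brightest probe, among probes well above background throughout 1 or both diets, plus any called gene. The methods state 1 rat per sample, and precision is limited by the number of arrays. Alternatives were the mean and median pixel signal, normexp (offset 50), centring on the 75th percentile or mean, quantile normalization, cyclic loess, only probes well above background, a block for slide or for replicate number, a trend in eBayes, the authors' own table (also with slide), a stricter q-value of 0.05, the mean of all probes of a gene, the methods' test of single genes and leaving out each array. Slide as a block with the 75th percentile, cyclic loess or normexp, and centring over spots, were added after seeing the data. The fit was tested on simulated data.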

Additional observations from a re-analysis of the deposited data

Results flagged for a closer look

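For the 12 enzyme probes, 0 of the 24 groups of 7 values held a sample far from the others. Among the 14 other role-list and mucin genes named by the rule, the sulfotransferase Gal3st2 had one: HPD replicate 7 was at -0.15 on the log2 scale and the next HPD value at 1.32, a gap of 0.716 of the whole range of the group. Muc2 and the genes named after their values were seen were not screened in this way. Without it the Gal3st2 difference was -0.39 in place of -0.65 (limma, adjusted p = 0.627). In 52 groups tested, chance alone flags about 1 in 20.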

How the results depend on the processing

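The count of enzyme genes called was 0 in every setting run, and of 378 further values for the 12 probes 34 changed sign and 0 were called. The sign changes were those of Galnt1, of Galnt4 and of the first Gcnt1 probe. The exon-joining Galnt1 probe was at -0.0026 with the mean pixel signal, -0.017 with the median pixel signal and -0.025 after normexp. It was at -0.0060 with mean centring and -0.051 after normexp with slide as a block. In these settings the other Galnt1 probe was at -0.054, -0.069, -0.091, -0.034 and -0.059. The deposited table gives values by gene name, counted here under the brightest probe. For Galnt1 it gave -0.084 without and -0.065 with slide as a block. Galnt4 was at 0.0044 with 75th percentile centring, 0.00067 with slide as a block added and 0.059 with the median over spots. The first Gcnt1 probe was at -0.033 with mean centring and at -0.0094 and -0.11 after cyclic loess without and with slide as a block. It was at -0.065 with slide as a block and -0.044 with 75th percentile centring added. Leaving out 1 array gave -0.039 to 0.13 for the second Galnt1 probe, -0.042 to 0.022 for Galnt4 and -0.074 to 0.15 for the first Gcnt1 probe. The cause was not tested.

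Over all genes, 16 were called, and 4995 after normexp (8135 with slide as a block), 26 with slide as a block, 39 with cyclic loess and slide, 2767 in the deposited table with slide, and 8 to 147 when 1 array was left out, 147 being without HPD replicate 1. Of the genes of the other role lists, mucins apart, 0 were called, and 11 after normexp, 21 with slide added and 6 in the deposited table with slide. Of the mucins 0 were called, and 4 after normexp, 6 with slide added, 1 in the deposited table with slide, 1 with cyclic loess and slide, and 2 at an unadjusted p under 0.05 in the methods' test. With the replicate block 7 genes were called over all probes and 0 enzymes. The replicate numbers are not shown to pair the rats: the correlation of deviations was -0.09 for number 4 and 0.14 to 0.39 for the other 6, each of which lay on a single slide, and 1 of 7 NPD and 4 of 7 HPD samples were closest to their own number. The number of arrays, and for the first Gcnt1 probe a signal near background, limit these values.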
